A study of Mus musculus with 6 samples.

Results

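The *Kel* gene and 8 other genes of the red cell lineage, 9 of the 55491 genes in the deposited table, were followed in inguinal white adipose tissue (IWAT). The others are *Klf1*, *Slc4a1*, *Epb42*, *Alas2*, and the adult globin genes *Hba-a1*, *Hba-a2*, *Hbb-bs*, and *Hbb-bt*. The 9 genes were chosen by symbol after their levels in the comparison of genotypes had been seen. Those levels, and the test outcomes given for them below, are therefore a description and not evidence about these genes. RNA was sequenced from 3 *Ebf2*+/+ (wild-type) and 3 *Ebf2* p.E165X/+ (heterozygous) mice, with 1 library per mouse. All of the mice were males of 4 weeks of age on the C57BL/6J background and ate regular chow. The heterozygous mice are CRISPR/Cas9 knock-ins that carry a premature stop codon in 1 copy of *Ebf2*, a transcription factor of adipocyte precursors, in every cell of the body. Per the study's supplement, the edit was made in eggs of B6SJLF1 hybrids and the founders were bred to C57BL/6J, and whether segments of the SJL genome remain was not tested.

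Red cell precursors mature in the bone marrow and spleen, where GATA1 and KLF1 switch on the genes of globins, heme synthesis, and the red cell membrane. Mature mammalian red cells have no nucleus and make no new RNA, but reticulocytes, the young cells that enter the blood, still hold globin mRNA and smaller amounts of other erythroid transcripts. Adipose tissue is rich in vessels, so that RNA of the whole tissue can include RNA of blood cells.

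Total counts per library were 124927686, 106820505, and 123853070 in the wild-type mice and 110850284, 117413441, and 135039488 in the heterozygous mice. Levels are given as CPM, the count per 1000000 counts of the library, after the sizes were scaled by the trimmed mean of M values (TMM). *Ebf2* itself was at 38.3, 41.3, and 37.2 CPM in the wild-type libraries and at 22.8, 22.9, and 21.1 CPM in the heterozygous libraries, a log2 fold change of -0.81 (SE 0.076, adjusted P = 0.0596 in edgeR's quasi-likelihood test over 32664 genes). The *Ebf2* levels thus followed the labels without overlap. Adipocyte markers were abundant in every library, with *Adipoq*, which encodes adiponectin, between 820 and 1303 CPM. Skeletal muscle markers set 1 library apart. Their 8 genes summed to 1920, 7749, and 3003 CPM in the wild-type libraries and to 3224, 774, and 45399 CPM in the heterozygous libraries, or 4.31% of all counts in the third of these.

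The adult globins come as pairs of near copies, which bears on what their counts mean. In the GENCODE M21 annotation of GRCm38, the coding sequences of *Hba-a1* and *Hba-a2* hold 429 bases each and differ at 1 base, position 381. Those of *Hbb-bs* and *Hbb-bt* hold 444 bases each and differ at 1 base, position 417. Positions are counted from 1 at the A of the start codon, and the capital letter marks the base that differs. The windows are shown because reads that lie within them but miss this base cannot be assigned to 1 gene of a pair. They lie, each within 1 coding exon, at chr11:32284313-32284372 (plus strand, *Hba-a1*), chr11:32297130-32297189 (plus strand, *Hba-a2*), chr7:103826668-103826727 (minus strand, *Hbb-bs*), and chr7:103812659-103812718 (minus strand, *Hbb-bt*).
Hba-a1 coding window: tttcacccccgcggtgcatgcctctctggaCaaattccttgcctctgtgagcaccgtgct
Hba-a2 coding window: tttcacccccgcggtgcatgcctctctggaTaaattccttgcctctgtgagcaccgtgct
Hbb-bs coding window: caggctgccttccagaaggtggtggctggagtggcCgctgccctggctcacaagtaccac
Hbb-bt coding window: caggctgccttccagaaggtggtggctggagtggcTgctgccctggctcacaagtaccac
Of all 50-base stretches of the exons, 67.5% of those in *Hba-a1* also occur in *Hba-a2* and 65.8% of those in *Hbb-bs* also occur in *Hbb-bt*. The division of counts within a pair is therefore uncertain, and the sum of the pair is the firmer measure.

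RefSeq promoters of 300 bases were at hand for *Kel*, *Klf1*, *Epb42*, *Alas2*, and the 4 globin genes (GRCm38.p6). Both strands were searched for the letters GATAA, to which GATA factors bind. This motif reads TTATC on the opposite strand. The letters CACCC, the core of sites for KLF1, were searched in the same way. That motif reads GGGTG on the opposite strand, and matches of the motifs on opposite strands can share 1 base. GATAA was found in 8 of 8 of these promoters and in 25.4% of 32851 promoters of all genes. CACCC was found in 7 of 8, all but that of *Epb42*, and in 57.5% of all promoters. Of the 8 promoters, 4 belong to the globin pairs of near copies. A match of these letters is a description and not evidence of binding. The stretches upstream of the annotated starts are printed for *Kel* and *Klf1*, whose levels did not overlap between genotypes, and for *Hba-a1* and *Hbb-bs*, with the matches in capitals. The promoter of *Kel* holds a second GATAA match that runs past the end of the stretch printed. The promoters of *Kel* and *Hbb-bs* each hold 1 CACCC match, which does not lie within the stretch printed. Those of *Klf1* and *Hba-a1* each hold 2 CACCC matches, of which 1 lies within the stretch printed. The stretches span chr6:41704340-41704539 (minus strand), chr8:84901732-84901927 (plus strand), chr11:32283422-32283510 (plus strand), and chr7:103828097-103828178 (minus strand).
Kel: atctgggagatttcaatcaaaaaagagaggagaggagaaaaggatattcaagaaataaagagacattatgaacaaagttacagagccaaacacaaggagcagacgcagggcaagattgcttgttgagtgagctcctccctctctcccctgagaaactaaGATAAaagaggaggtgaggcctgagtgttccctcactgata
Klf1: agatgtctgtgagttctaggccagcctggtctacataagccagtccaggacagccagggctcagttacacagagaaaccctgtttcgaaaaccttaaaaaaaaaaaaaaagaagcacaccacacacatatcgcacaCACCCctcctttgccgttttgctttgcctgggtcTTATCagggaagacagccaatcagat
Hba-a1: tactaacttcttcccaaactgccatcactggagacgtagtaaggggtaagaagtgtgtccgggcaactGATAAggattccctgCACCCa
Hbb-bs: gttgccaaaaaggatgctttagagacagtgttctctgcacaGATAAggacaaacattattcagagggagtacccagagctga

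*Kel* encodes the Kell blood group glycoprotein, a zinc endopeptidase of the red cell surface that cleaves big endothelins. The gene (ENSMUSG00000029866) lies at chr6:41686330-41704339 on the minus strand of GRCm38. It was counted 28, 39, and 50 times in the wild-type libraries and 179, 111, and 81 times in the heterozygous libraries. These counts are 0.233, 0.370, and 0.403 CPM against 1.55, 0.889, and 0.632 CPM. Every heterozygous library was above every wild-type library, and the third heterozygous library lay closest to the wild-type group. The means were 0.336 ± 0.0903 and 1.02 ± 0.472 CPM (SD, n = 3), a log2 fold change of 1.56 with an SE of 0.39. At so few counts the counting error is visible. The exact 95% Poisson interval reached 0.532 CPM in the highest wild-type library and began at 0.502 CPM in the lowest heterozygous library, so the intervals of these neighbors overlapped.

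*Klf1* (ENSMUSG00000054191, chr8:84901928-84905291, plus strand) encodes the transcription factor that activates the adult beta-globin and red cell membrane genes. Its counts were 31, 35, and 54 in the wild-type libraries and 145, 88, and 80 in the heterozygous libraries. The levels were 0.258, 0.332, and 0.436 CPM against 1.25, 0.705, and 0.625 CPM. As for *Kel*, the groups did not overlap and the first heterozygous library was highest. The log2 fold change was 1.29 (SE 0.35). The 6 libraries came in the same order for *Kel* and *Klf1*, and the Pearson r of their log2 CPM was 0.989 over these 6 libraries, which share the depth and composition of each library.

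*Slc4a1* encodes band 3, the anion exchanger that carries bicarbonate and chloride across the red cell membrane. The gene (ENSMUSG00000006574) lies at chr11:102348824-102366203 on the minus strand. *Slc4a1* was at 8.10, 6.42, and 11.97 CPM in the wild-type libraries and at 35.0, 18.5, and 8.38 CPM in the heterozygous libraries. The first and second heterozygous libraries were above all wild-type libraries, while the third was inside their range. The log2 fold change was 1.22 with an SE of 0.48, and it was 0.60 without the first heterozygous mouse.

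*Epb42* (ENSMUSG00000023216, chr2:121017891-121037072, minus strand) encodes protein 4.2, which ties band 3 to the ankyrin and spectrin skeleton. It was at 0.757, 0.522, and 1.23 CPM in the wild-type libraries and at 3.78, 2.12, and 0.796 CPM in the heterozygous libraries. The groups overlapped through the same library as for *Slc4a1*. The log2 fold change was 1.39 (SE 0.56), and 0.79 without the first heterozygous mouse. *Slc4a1* and *Epb42* also shared 1 order of the libraries, with an r of 0.996 over 6 libraries.

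**Figure D1:**
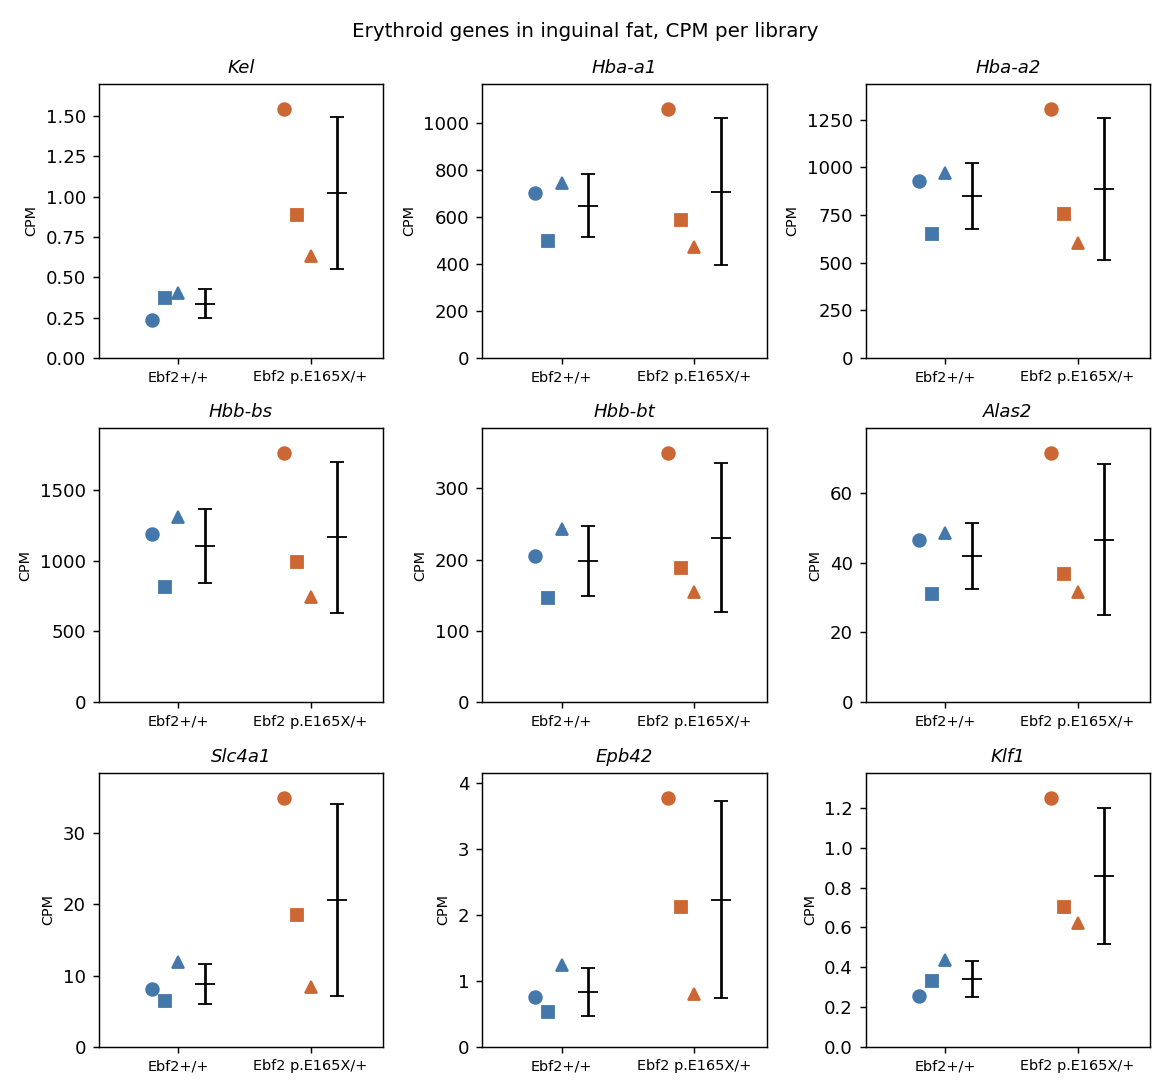
CPM (y axis, linear from 0) of each of the 9 erythroid genes in the 3 wild-type (blue) and 3 heterozygous (orange) libraries, with circles, squares, and triangles for replicates 1, 2, and 3, and black bars for the mean and SD. The groups do not overlap for Kel and Klf1, and heterozygous replicate 1 is the highest library in all 9 panels.

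The globins carry oxygen as alpha and beta chains with heme, and their levels overlapped between the genotypes. *Hba-a1* (ENSMUSG00000069919, chr11:32283511-32284465, plus strand) was at 703, 496, and 746 CPM in the wild-type libraries and at 1062, 588, and 473 CPM in the heterozygous libraries. The lowest and the highest of the 6 levels were both in heterozygous mice. *Hba-a2* (ENSMUSG00000069917, chr11:32296489-32297298, plus strand) was at 930, 651, and 970 CPM against 1309, 753, and 603 CPM. The log2 fold changes were 0.13 (SE 0.31) for *Hba-a1* and 0.06 (SE 0.30) for *Hba-a2*, each smaller than its SE.

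*Hbb-bs* (ENSMUSG00000052305, chr7:103826534-103828096, minus strand), the most abundant of the 9 genes, was at 1189, 811, and 1307 CPM in the wild-type libraries and at 1759, 992, and 740 CPM in the heterozygous libraries. *Hbb-bt* (ENSMUSG00000073940, chr7:103812524-103813996, minus strand) was at 206, 146, and 243 CPM against 350, 188, and 155 CPM. Both genes had the first heterozygous library on top and the other libraries interleaved. The log2 fold changes were 0.08 (SE 0.33) and 0.22 (SE 0.32).

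*Alas2*, the first enzyme of heme synthesis in red cell precursors, went with the globins. The gene (ENSMUSG00000025270, chrX:150547375-150570638, plus strand) was at 46.4, 30.9, and 48.3 CPM in the wild-type libraries and at 71.3, 36.8, and 31.5 CPM in the heterozygous libraries, a log2 fold change of 0.15 (SE 0.31). The r among *Alas2* and the 4 globins ran from 0.974 to 0.998 over the 6 libraries, while that of *Kel* with each of these 5 genes ran from 0.34 to 0.51. Without the first heterozygous mouse, the log2 fold changes of these 5 genes fell below 0, to between -0.35 for *Hbb-bs* and -0.21 for *Hbb-bt*, and without the second wild-type mouse those of *Hba-a1*, *Hba-a2*, *Hbb-bs*, and *Alas2* were also below 0.

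**Figure D2:**
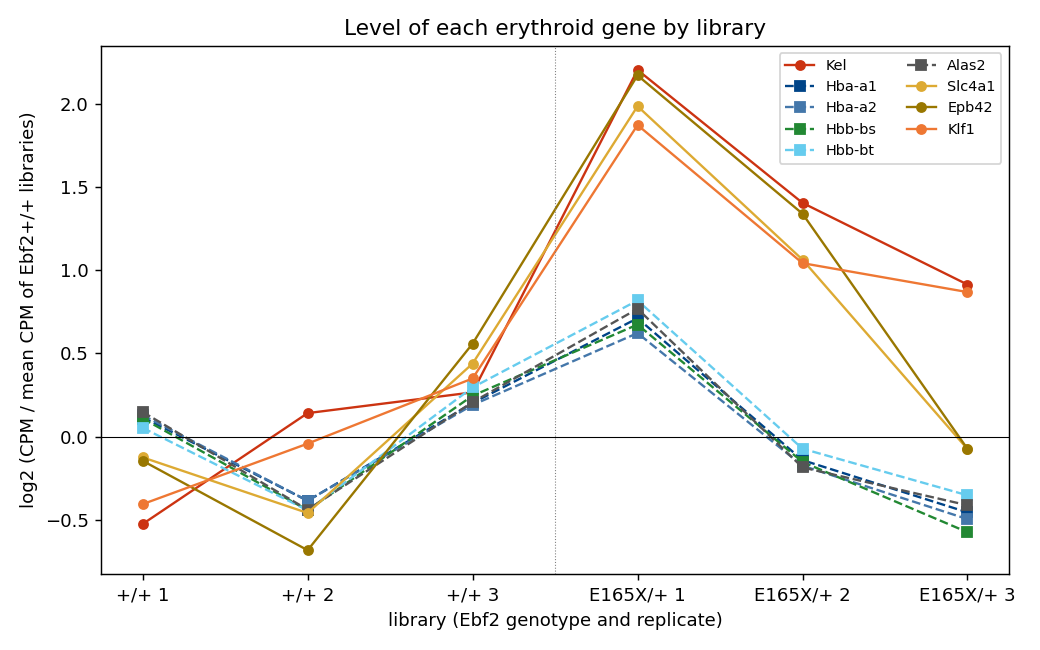
Log2 ratio of the CPM of each gene to its mean in the wild-type libraries (y axis) in the 6 libraries (x axis); lines join the points of 1 gene, and replicates have no order. In each heterozygous library Kel, Klf1, Slc4a1, and Epb42 (solid) lie above the globins and Alas2 (dashed), which stay close to each other in all 6 libraries.

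All 9 genes had at least 28 counts in every library, so that 9 of 9 passed the filter for the test and the stricter one of 10 counts in every library. In edgeR's quasi-likelihood test, a call needed both a fold change above 1.5 and an adjusted P below 0.05, and 0 of the 9 genes were called where 0.00918% of the genes tested were. At an unadjusted P under 0.05, 4 of the 9 genes (*Kel*, *Klf1*, *Slc4a1*, and *Epb42*) were higher in heterozygous mice, where 1.68% of the genes tested were. Only *Kel* and *Klf1*, 2 of the 9, were so in limma-voom, with either stricter filter on counts, with a replicate block, and without the first wild-type, the second wild-type, or the first heterozygous mouse. In those settings, 1051 to 1757 of the 18905 to 32664 genes tested had an unadjusted P under 0.05 in either direction. DESeq2 called 1 of the 9, *Kel*, where it called 0.282% of the genes tested, and limma-voom called 0, where it called 0.0122%. Of the 9 genes, 2 had levels without overlap and higher in heterozygous mice, where 6.66% of the 18905 genes of the stricter filter did. The first heterozygous library was the highest for 9 of the 9, where it was for 13.9% of those genes, and the third was the highest for 0 of the 9, where it was for 23.6%. Since the genes were picked from this same contrast, these counts are not evidence about them. In whole tissue, more cells of a type and more RNA per cell cannot be told apart.

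Levels of different genes were compared per kilobase of exon. The medians over the 6 libraries were 1420 CPM per kilobase for *Hbb-bs*, 1261 for *Hba-a2*, 795 for *Hba-a1*, and 280 for *Hbb-bt*. *Alas2* followed at 17.3 and *Slc4a1* at 2.08 CPM per kilobase. *Klf1*, at 0.346, and *Epb42* and *Kel*, each at 0.187, were the lowest. This order assumes reads along the whole transcript, whereas the sources differ on the kit, which is one for 3′ ends in the study's supplement but not in the labels.

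Ratios within a library do not depend on how the libraries were scaled. The 4 adult globins together took 0.291%, 0.208%, and 0.327% of all counts in the wild-type libraries and 0.468%, 0.268%, and 0.187% in the heterozygous libraries, and the groups overlapped. Per 100000 of these globin counts, *Kel* had 7.70, 17.6, and 12.4 counts in the wild-type libraries and 34.5, 35.3, and 32.1 counts in the heterozygous libraries. On this scale the heterozygous libraries were nearly level with each other, and their mean of 34.0 ± 1.66 counts (SD, n = 3) was 2.71 times that of the wild-type libraries, 12.5 ± 4.95 counts.

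*Klf1* had 8.52, 15.8, and 13.3 counts per 100000 globin counts in the wild-type libraries and 28.0, 28.0, and 31.7 in the heterozygous libraries. *Epb42* had 25.02, 24.8, and 37.79 against 84.32, 84.17, and 40.4. *Slc4a1* had 268, 305, and 367 against 782, 732, and 425. The groups were apart for all 4 of these genes, by the least for *Epb42* and *Slc4a1*, where the third heterozygous library came near the wild-type libraries. Of the 18905 genes of the stricter filter, 0.28% had higher ratios to the globins in all heterozygous libraries. The globins took their largest share of counts in the first heterozygous library. This lowers the ratio there for any gene that does not follow them, so that few genes could pass. The 4 genes were also picked from this contrast, and the share is not evidence about them. *Alas2* had 1533, 1468, and 1480 counts per 100000 globin counts against 1592, 1461, and 1596, with overlap and a relative range narrower than that of the other 4 genes.

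**Figure D3:**
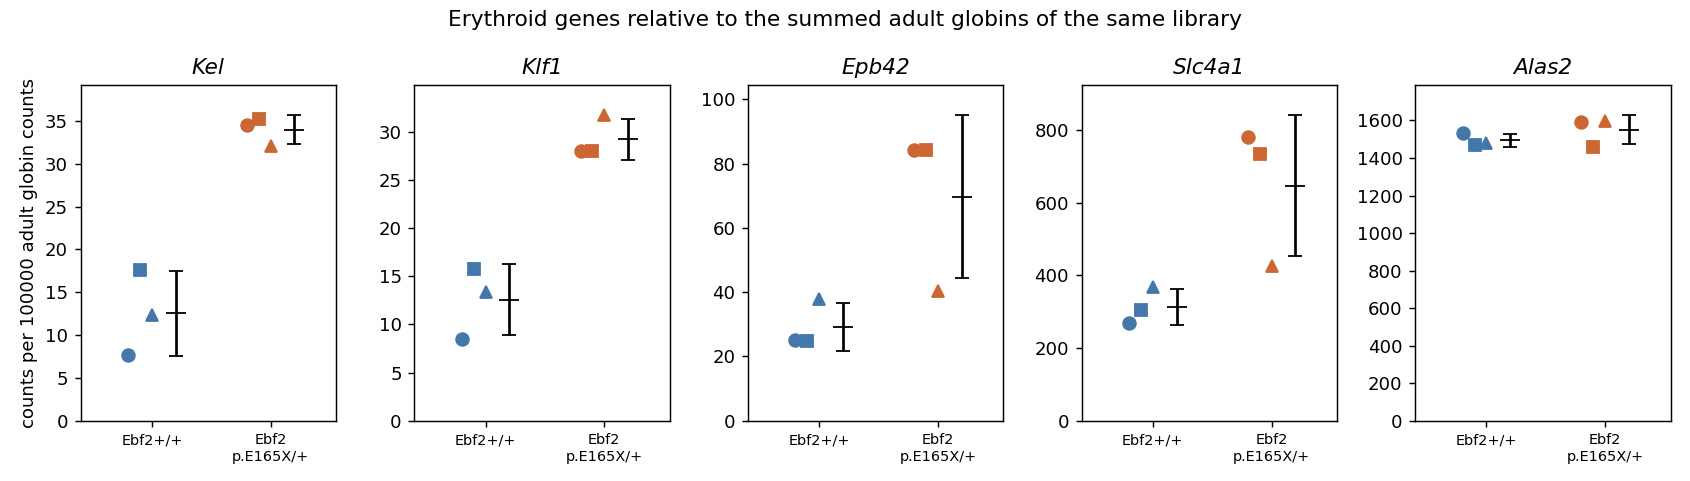
Counts of 5 genes per 100000 counts of the 4 adult globins in the same library (y axis, linear from 0), by genotype, with circles, squares, and triangles for replicates 1, 2, and 3, and black bars for the mean and SD. Kel, Klf1, Epb42, and Slc4a1 are higher in each heterozygous library, and Alas2 lies between 1461 and 1596 in all 6 libraries.

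The globins kept steady proportions to each other. The summed alpha counts were 1.106 to 1.201 times the summed beta counts, with a mean of 1.16 in the wild-type and 1.15 in the heterozygous libraries. *Hbb-bt* made up 14.7%, 15.2%, and 15.7% of the beta counts in the wild-type libraries and 16.6%, 16.0%, and 17.3% in the heterozygous libraries. *Hba-a1* made up 43.06%, 43.26%, and 43.47% of the alpha counts against 44.79%, 43.84%, and 43.96%. Both shares were without overlap but differed by little, and each rests on the division of reads between near copies described above.

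Among the 18905 genes of the stricter filter, the 5 with the highest Pearson r to the log2 CPM of *Kel* over the 6 libraries were *Gxylt1* (0.991), *Cpt1a* (0.990), *Klf1* (0.989), *Man1a* (0.987), and *Pus7l* (0.986). *Klf1* was the only erythroid gene of the 5. *Slc4a1* ranked 348th, and *Hbb-bs* 5632nd. The 5 genes most like the summed adult globins included *Alas2* (0.992), *Fgfr3* (0.988), *Naa40* (0.982), and *Map2* (0.980). These lists describe the order of r over 6 libraries and nothing more.

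A wider list held 66 other erythroid genes, of which 64 were in the table, 63 were tested, and 55 had at least 10 counts in every library. The list was drawn up with earlier results of these libraries known. In edgeR's quasi-likelihood test 0 of the 63 were called. At an unadjusted P under 0.05, 14 of 63 were higher in heterozygous mice (1.68% of all genes tested) and 4 were lower (3.09% of all genes tested). The count of 14 ran from 3 to 18 with 1 mouse left out and was 7 with limma-voom. Over all genes tested, in either direction, 1051 to 1758 passed that P with 1 mouse left out, and 1757 with limma-voom. The median log2 fold change was 0.20, and it was 0.014 over all genes tested. DESeq2 gave 1 of the 63, *Alas1*, an adjusted P under 0.05, at a fold change under 1.5, and limma-voom gave none. With the threshold on fold change, neither called any of the 63, where DESeq2 called 0.282% and limma-voom 0.0122% of the genes tested. The share of all genes at an adjusted P alone is not given here. Of the 55, 6 were higher without overlap, against 6.66% of all genes, and 4 were lower without overlap, against 6.78%. The first heterozygous library was the highest for 26 of the 55.

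The genes of the red cell membrane and its skeleton had the highest median log2 fold change of the 5 other erythroid lists, 1.03 over 20 genes, of which 18 were higher and 2 lower in heterozygous mice. *Rhag*, the ammonia channel of the Rh complex, was at 0.233, 0.304, and 0.710 CPM in the wild-type libraries and at 2.04, 1.43, and 0.484 CPM in the heterozygous libraries (log2 fold change 1.62, SE 0.60). *Ermap*, the Scianna blood group protein, was at 1.34, 1.40, and 2.37 CPM against 6.30, 3.30, and 1.90 CPM (1.16, SE 0.44). Both of these genes overlapped between the groups through the third heterozygous library, as *Slc4a1* and *Epb42* did. *Trim10*, *Tspo2*, *Cldn13*, and *Xk* also had an unadjusted P under 0.05, at log2 fold changes of 1.21, 1.02, 1.05, and 0.71. *Xk*, whose protein is bound to Kell by a disulfide bond, was higher without overlap, at 2.26, 3.29, and 3.27 CPM against 4.41, 3.40, and 6.67 CPM, and its highest library was the third. The adjusted P was 0.783 for each of *Rhag*, *Ermap*, *Trim10*, *Tspo2*, *Cldn13*, and *Xk* in edgeR. *Dmtn*, dematin, was lower, at 36.8, 31.4, and 29.2 CPM against 21.3, 27.4, and 23.7 CPM (-0.43, SE 0.12).

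A few members of the membrane list had another pattern. *Ank1* was at 171 CPM in the third heterozygous library and at no more than 29.1 CPM in the others, *Sptb* at 92.1 against no more than 18.3 CPM, and *Tmod1* at 135 against no more than 23.5 CPM. These ankyrin, beta-spectrin, and tropomodulin genes are also used in skeletal muscle, and the library is the one in which the summed muscle markers stood at 45399 CPM. *Sox6* (76.1 CPM), *Tfrc*, the transferrin receptor (141 CPM), and *Xk* (6.67 CPM) were likewise highest in that library. The part of muscle in these values was not tested. For *Kel*, *Klf1*, *Slc4a1*, *Epb42*, and the globins, that library was the lowest of the 3 heterozygous libraries, and *Kel* had a log2 fold change of 1.81 without it.

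Of 12 other transcription regulators of the lineage, 12 were higher on average in heterozygous mice, with a median log2 fold change of 0.24. *Gata1*, the master regulator of erythroid genes, was at 0.708, 0.560, and 0.839 CPM in the wild-type libraries and at 1.74, 1.19, and 0.976 CPM in the heterozygous libraries, without overlap. Its log2 fold change was 0.87 (SE 0.29, unadjusted P = 0.016, adjusted P = 0.783 in edgeR). *Hemgn*, hemogen, was at 0.749, 0.958, and 1.34 CPM against 4.18, 2.75, and 0.796 CPM. *Tal1* and *Myb* were also without overlap but at log2 fold changes of only 0.19 and 0.27. Both regulators, like *Ldb1* (101 to 125 CPM), are also used outside the erythroid lineage.

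Among 8 other enzymes of heme synthesis, 3 were higher and 5 lower. *Alas1*, the housekeeping counterpart of *Alas2*, was at 135, 119, and 121 CPM in the wild-type libraries and at 90.8, 99.9, and 93.4 CPM in the heterozygous libraries. The groups did not overlap, and the log2 fold change was -0.40 (SE 0.084, adjusted P = 0.584 in edgeR). *Alad* was lower without overlap at a log2 fold change of -0.23, and *Cpox* higher without overlap at 0.34. *Fech*, which inserts the iron of heme, had a log2 fold change of -0.03 (SE 0.099).

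Genes of erythroid signaling, enzymes, and maturation were mixed, with 11 higher and 6 lower of 17 tested. *Pklr*, the pyruvate kinase of liver and red cells, was at 0.0583, 0.0664, and 0.153 CPM in the wild-type libraries and at 0.484, 0.504, and 0.172 CPM in the heterozygous libraries, that is without overlap but from as few as 7 counts. *Trim58* (log2 fold change 1.54), a ubiquitin ligase of late precursors, and *Slc25a37* (0.38), the mitochondrial iron importer mitoferrin 1, were also higher without overlap, *Trim58* from as few as 4 counts. *Abcb10*, a mitochondrial transporter, was lower without overlap, at 39.4, 25.9, and 28.9 CPM against 24.7, 24.8, and 25.6 CPM. *Car2*, a carbonic anhydrase, had a log2 fold change of 0.73 (SE 0.28). *Tfr2* was lower, with a log2 fold change of -0.79 (SE 0.28), and the erythropoietin receptor gene *Epor* had one of -0.04 (SE 0.20). Embryonic globin genes were at or near 0, with *Hba-x* and *Hbb-bh2* having counts in 1 library each, and the 7 other globin genes summed to no more than 0.510 CPM in any library.

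The erythroid genes with low levels were the ones most often highest in the first heterozygous library. Split after the values were seen by their mean over the 6 libraries, 20 of the 55 genes were under 10 CPM and 35 were not. Of the 20, 18 were highest in the first heterozygous library, compared with 16.4% of all 8527 genes under 10 CPM, and their median log2 fold change was 0.79. Of the 35, 8 were highest in that library, compared with 11.9% of all 10378 genes at 10 CPM or more, and their median log2 fold change was 0.07. Many genes of the upper part, such as *Aqp1*, a water channel, and *Prdx2*, a peroxiredoxin, are also made by other cells of the tissue.

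**Figure D4:**
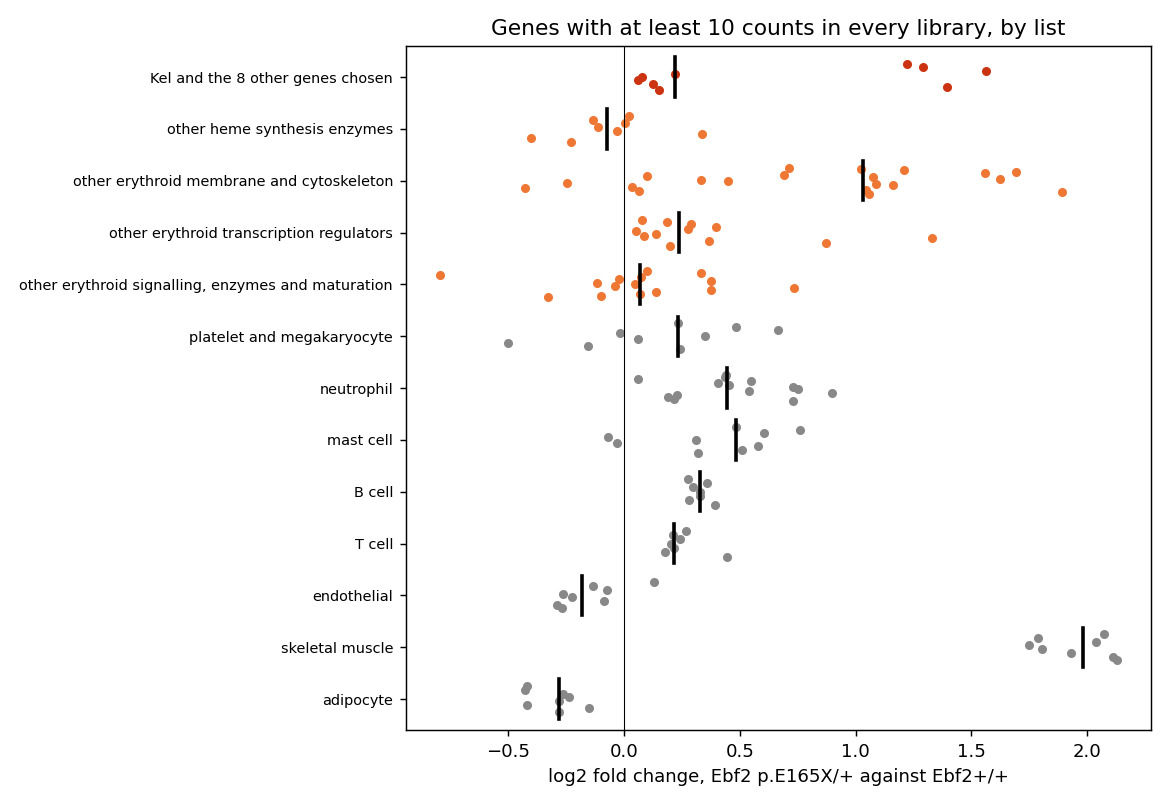
Log2 fold change, heterozygous against wild-type (x axis), of each gene with at least 10 counts in every library (points), by list (y axis), with the median of the list as a black line. The other membrane and cytoskeleton genes have a median of 1.03, and the 9 genes chosen fall into 4 at 1.22 to 1.56 and 5 at 0.06 to 0.22.

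The family and the substrates of the Kell protein were examined next. Of 11 M13 peptidases, endothelins, and endothelin receptors, 5 were higher and 6 lower, with a median log2 fold change of -0.02. *Ece1*, the main endothelin-converting enzyme, was at 139 to 157 CPM except for 121 CPM in the third heterozygous library. *Mme*, neprilysin, was at 123, 145, and 115 CPM in the wild-type libraries and at 107, 107, and 81.2 CPM in the heterozygous libraries, a log2 fold change of -0.38 (SE 0.14) without overlap. *Edn1*, endothelin 1, lay between 5.56 and 6.63 CPM. Of 27 blood group genes tested, 19 were higher and 8 lower, with a median log2 fold change of 0.04, and the 5 higher at an unadjusted P under 0.05 (1.68% of all genes tested) included *Ermap*, *Rhag*, and *Xk*, which are also on the erythroid list. Genes that clear hemoglobin and iron had a median log2 fold change of 0.08 over 12 genes. *Hmox1*, heme oxygenase 1, was at 67.7, 45.6, and 61.0 CPM against 73.0, 61.6, and 65.6 CPM.

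Other blood cells were examined beside the red cell genes, by lists of markers. The 14 neutrophil markers were all higher on average in heterozygous mice, with 0 called, 5 higher at an unadjusted P under 0.05 (1.68% of all genes tested), and a median log2 fold change of 0.45. They summed to 68.6, 66.6, and 94.0 CPM in the wild-type libraries and to 99.7, 83.6, and 128 CPM in the heterozygous libraries, where the third library, lowest in *Kel*, was highest. *S100a9* was the most abundant of them. The 9 mast cell markers summed to 108, 93.1, and 116 CPM against 136, 126, and 137 CPM. *Kit* was the most abundant, and *Mcpt4* had the lowest P of the list (log2 fold change 0.60, SE 0.087, adjusted P = 0.229 in edgeR). Platelet and megakaryocyte markers, led by *Pf4*, summed to 50.1, 42.6, and 48.1 CPM against 57.4, 50.5, and 50.9 CPM, a narrower spread than that of *Kel*. Of these 12 markers, 9 were higher and 3 lower on average in heterozygous mice. *Pf4* itself had a log2 fold change of -0.02 (SE 0.18). *Itga2b* was at 17.2, 20.1, and 19.3 CPM against 26.5, 25.4, and 20.2 CPM. B cell markers, led by *Ms4a1*, summed to 404, 637, and 643 CPM against 665, 757, and 689 CPM. T cell markers, led by *Lck*, summed to 243, 316, and 325 CPM against 342, 376, and 330 CPM, endothelial markers, led by *Pecam1*, to 1322, 1291, and 1247 CPM against 1199, 1249, and 988 CPM, and markers of blood progenitors to 404, 302, and 361 CPM against 346, 387, and 382 CPM. Most of this last sum is *Cd34* (335, 227, and 278 CPM against 269, 307, and 307 CPM), which stromal and endothelial cells of fat also express. The 8 adipocyte markers, led by *Lpl*, summed to 17543, 17789, and 15268 CPM against 16321, 14161, and 10266 CPM, and were lowest in the library with the most muscle. The sums of the mast cell, platelet, B cell, and T cell markers were higher without overlap in heterozygous mice, the platelet sum by the least (50.1 against 50.5 CPM), whereas those of the neutrophil, endothelial, progenitor, and adipocyte markers overlapped. Of the 7 B cell markers, 6 were higher without overlap, against 6.66% of all genes. In edgeR 0 of these 7 were called and 0 were higher at an unadjusted P under 0.05 (1.68% of all genes tested). None of these markers was at 0 in all libraries, and the part of blood or of blood-forming tissue in the levels of the red cell genes was not tested.

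**Figure D5:**
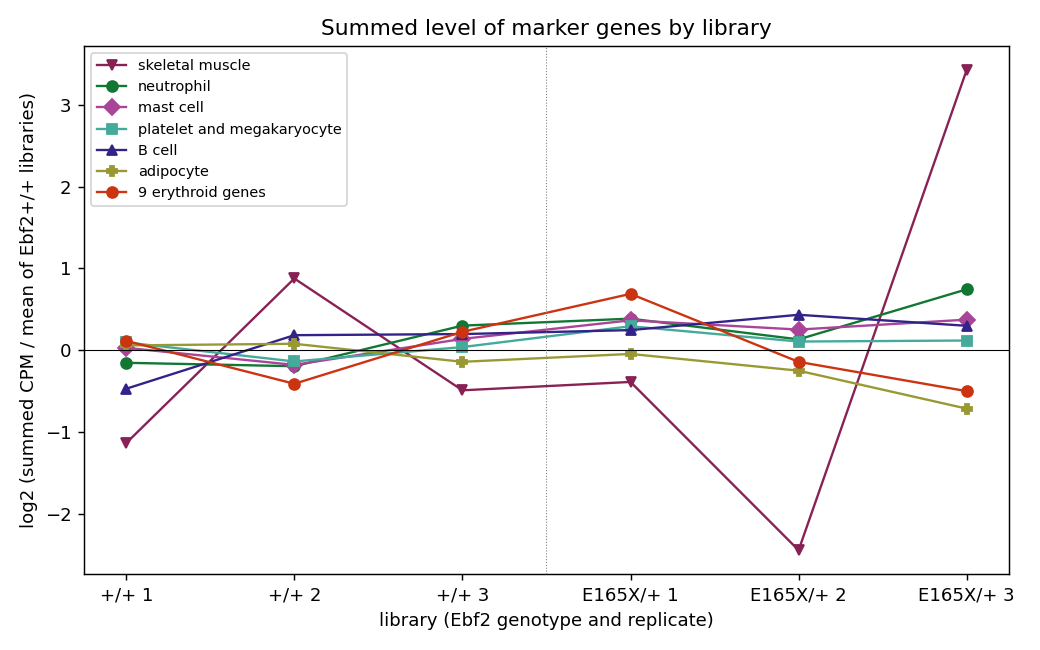
Log2 ratio of the summed CPM of each list to its mean in the wild-type libraries (y axis) in the 6 libraries (x axis); lines join the points of 1 list, and replicates have no order. Skeletal muscle ranges from 774 to 45399 CPM, and the sum of the 9 erythroid genes, which is mostly globin, is highest in heterozygous replicate 1 and lowest in heterozygous replicate 3.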

How the data were processed

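The authors deposited expected counts, that is estimated fragment numbers, for 55491 genes in 6 libraries, without scaling for depth. All 332946 values were whole, and rounding changed none. The submitters' processing notes name cutadapt 4.8, FastQC 0.11.8, STAR 2.7.8a, RSEM 1.3.3, MultiQC 1.20, and the build GRCm38, and the study's supplement names ENSEMBL 109 for gene annotation. The labels name an NEB kit and the supplement a 3′ QuantSeq kit, and the strand setting of the counting is not given in the sources used here.

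Genes counted at least 1 time were tested with edgeR 4.0.16 (quasi-likelihood test, TMM factors, genotype as the only term) in R 4.3.3, with Benjamini-Hochberg adjustment over all 32664 genes. Calls needed an adjusted P under 0.05 and a linear fold change above 1.5. The log2 fold changes printed used a prior count of 2. SEs were derived from the fold change and F statistic of the fit with edgeR's default prior count. For *Kel* the log2 fold change in that fit was 1.60. Alternatives were DESeq2 1.42.0 without independent filtering, limma-voom (limma 3.58.1), other filters and scalings, a replicate block, and each mouse left out. Tests were tried on simulated data. Total counts were 106820505 to 135039488 per library, and Poisson intervals are exact 95% intervals that cover counting error only.

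The members and the lists of genes were chosen with earlier results of these data known. Genes named are the 9 members, *Ebf2*, genes of the lists (those with an unadjusted P under 0.05 and the most abundant of each list among them), and the 5 genes most like *Kel* and the summed globins. A few genes that this rule takes in are not reported here. Gene positions and exons are from GENCODE M21 (GRCm38) and promoters from RefSeq (GRCm38.p6), where 8 of the 9 genes matched. Tables were summarised in Python 3.11.15 (pandas 2.3.3, numpy 2.4.6, scipy 1.17.1), which also drew the plots (matplotlib 3.10.9).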

Additional observations from a re-analysis of the deposited data

How the results depend on the processing

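The count of genes called between genotypes was 3, and it was 92 with DESeq2 and from 1 to 11 with 1 mouse left out (11 without the third heterozygous mouse). The other erythroid genes kept a median log2 fold change above 0 in all 13 alternatives run, from 0.12 to 0.28. The count of these genes that were higher at an unadjusted P under 0.05, 14 of 63, is less firm. It was 7 with limma-voom, where 1757 of all 32664 genes tested passed that P in either direction. With 1 mouse left out it ran from 3 to 18. It was 3 without the first or the second wild-type mouse (1051 of 32182 and 1284 of 32285 of all genes). It was 5 without the first heterozygous mouse (1673 of 32173) and 18 without the third (1711 of 32108). This comparison was added after the data were seen. With a replicate block the count was 6, where 1281 of all 32664 genes passed that P in either direction, and 2 genes were called. The replicate numbers did not pair the mice, since the deviations of same-numbered libraries from their group means had correlations of 0.15, -0.28, and -0.16 over 18905 genes. Fewer mice leave fewer degrees of freedom, and the cause of the other shifts was not tested.

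The log2 fold changes with 1 mouse left out ran from 1.14 to 1.81 for *Kel*, from 0.93 to 1.47 for *Klf1*, from 0.60 to 1.60 for *Slc4a1*, and from 0.79 to 1.79 for *Epb42*, above 0 in each case. The log2 ratio of the summed adult globins was 0.095, from -0.32 to 0.32 with 1 mouse left out, so that it has no stable sign. *Kel* and *Klf1*, with as few as 28 and 31 counts in a library, are limited by counting as well as by the number of mice.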

Other observations

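Of the 9 mast cell markers, 0 were called in edgeR, 7 were higher and 2 lower on average in heterozygous mice, and 4 were higher at an unadjusted P under 0.05 (1.68% of all genes tested). *Kit* and *Gata2*, the 2 lower ones, had log2 fold changes of -0.07 (SE 0.10) and -0.03 (SE 0.12), and *Cma1*, chymase, overlapped between the groups. *Cpa3*, a carboxypeptidase of mast cell granules, was at 17.1, 14.5, and 18.8 CPM in the wild-type libraries and at 25.1, 20.3, and 26.4 CPM in the heterozygous libraries, without overlap. *Tpsb2*, a tryptase, was at 14.6, 11.1, and 16.1 CPM against 19.2, 18.5, and 20.8 CPM. Their log2 fold changes were 0.51 (SE 0.14) and 0.48 (SE 0.14), with an adjusted P of 0.783 for each in edgeR. Of the 14 neutrophil markers, *Retnlg* had the log2 fold change nearest to 0, 0.06 (SE 0.41), and *Mpo*, myeloperoxidase, one of 0.41 (SE 0.51). *Ltf*, lactoferrin, was at 5.43, 7.15, and 8.13 CPM against 9.52, 10.96, and 14.5 CPM (log2 fold change 0.75, SE 0.21, adjusted P = 0.783 in edgeR).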
